A study of Mus musculus with 9 samples.

Results

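The genes described here are the mitochondrial carriers of the SLC25 family in mouse SIX2 progenitors, the cap mesenchyme cells that form the nephron. All protein-coding genes whose symbol begins with Slc25a and a number were taken, which gave 47 of the 26858 genes of the deposited count table. Of these, 40 passed the filter on low counts and were tested between genotypes, and 7 did not. SIX2 progenitors had been sorted by the green fluorescence of a Six2-eGFP/cre transgene from E18.5 kidneys, and RNA was sequenced from 4 heterozygous Six2-Qpc control libraries and 5 Six2-Qpc knockout libraries, called mutant here. QPC is the ubiquinone-binding subunit of complex III of the respiratory chain and is encoded by Uqcrq. The comparison asked how loss of mitochondrial electron transport in SIX2 progenitors changed their transcripts.

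Most SLC25 proteins sit in the inner mitochondrial membrane, which is closed to most charged molecules, and move a small set of substrates between the cytosol and the matrix. Through them ADP enters and ATP leaves, phosphate and reducing equivalents are brought in, and amino acids, fatty acyl groups, nucleotides and cofactors reach the matrix enzymes. Nephron progenitors depend on both glycolysis and mitochondrial metabolism while they renew and differentiate, and the developing proximal tubule relies on mitochondrial oxidation.

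Both genotypes carried the transgene, in which Six2 regulatory sequences drive Cre recombinase and green fluorescence, and the controls had 1 inactivated Qpc allele, so that neither genotype was wild type. The sort kept cells by fluorescence only, and the transcript level in a bulk library cannot separate fewer cells of a kind from less RNA per cell. The labels do not say whether each library came from a separate animal, so the p-values measure the spread between these libraries. Library values are given in the order control 71, 72, 73 and 76 and mutant 74, 75, 77, 78 and 79, as counts per 1000000 after TMM scaling (CPM) unless FPKM, the level per kilobase of transcript, is named.

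The 9 libraries held 21040536 to 23986458 counts. Uqcrq fell from 94.1 ± 13.3 CPM in the 4 control libraries to 21.3 ± 4.45 CPM in the 5 mutant libraries (mean ± SD, as throughout). On the first principal component of all genes, which took 38.9% of the variance, control 76 and mutant 74 were the libraries nearest to the other genotype. None of the 11 nephron progenitor markers passed the test in edgeR, and their summed level was 2338 to 2845 CPM in control and 2335 to 2803 CPM in mutant libraries. The summed level of 8 stroma markers was 99.0 to 170.0 CPM in control and 227 to 621 CPM in mutant libraries, with 5 of the 7 tested higher. That of 6 myeloid markers was 0.379 to 11.6 CPM against 9.93 to 126 CPM, with 2 of the 6 higher. For 6 endothelium markers it was 2.57 to 5.52 CPM against 3.94 to 9.33 CPM, with 1 of the 4 tested higher. For 6 ureteric bud markers it was 44.9 to 62.9 CPM against 27.35 to 49.4 CPM, with 0 of the 3 tested past the threshold in edgeR. Most of that sum was Hoxb7 (means of 40.5 CPM in control and 29.3 CPM in mutant libraries) and Wnt11 (12.9 and 7.17 CPM). Calb1 went the other way (0.356 and 2.69 CPM), and Ret, Wnt9b and Gata3 averaged at most 0.427 CPM in either genotype. The part of these other cells in the carrier values below was not tested.

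Most SLC25 transcripts did not pass the edgeR test in mutant SIX2 progenitors. Slc25a33, a pyrimidine nucleotide carrier, rose 2.29-fold, and 6 members fell, among them the dicarboxylate carrier Slc25a10, the oxoglutarate carrier Slc25a11, the acylcarnitine carrier Slc25a20, the oxodicarboxylate carrier Slc25a21 and the ATP-Mg/phosphate carrier Slc25a25. These 7 of 40 members tested are 17.5%, next to 14.8% of all 14990 genes tested that passed the same threshold, an adjusted p below 0.05 in edgeR's quasi-likelihood test. By direction, 2.5% of the members were higher, next to 7.82% of all genes, and 15% were lower, next to 7.02%. The share called was therefore near that of all genes. The median log2 fold change of mutant against control was 0.01 over the 40 members and -0.01 over all genes tested, and the fitted value was lower in mutant for 47.5% of the members and 50.8% of all genes. Libraries of the 2 genotypes did not overlap for 5 members (12.5%), next to 15.2% of all genes. The mutant libraries were the lower ones for 4 of these, a pattern that 7.73% of all genes had. Leaving out control 71, control 72 or mutant 79 gave 4 members past the threshold, leaving out control 73 gave 2, leaving out mutant 78 gave 3, and leaving out mutant 74 gave 11, with Slc25a1, Slc25a27, Slc25a36 and Slc25a51 added to the 7.

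**Figure D1:**
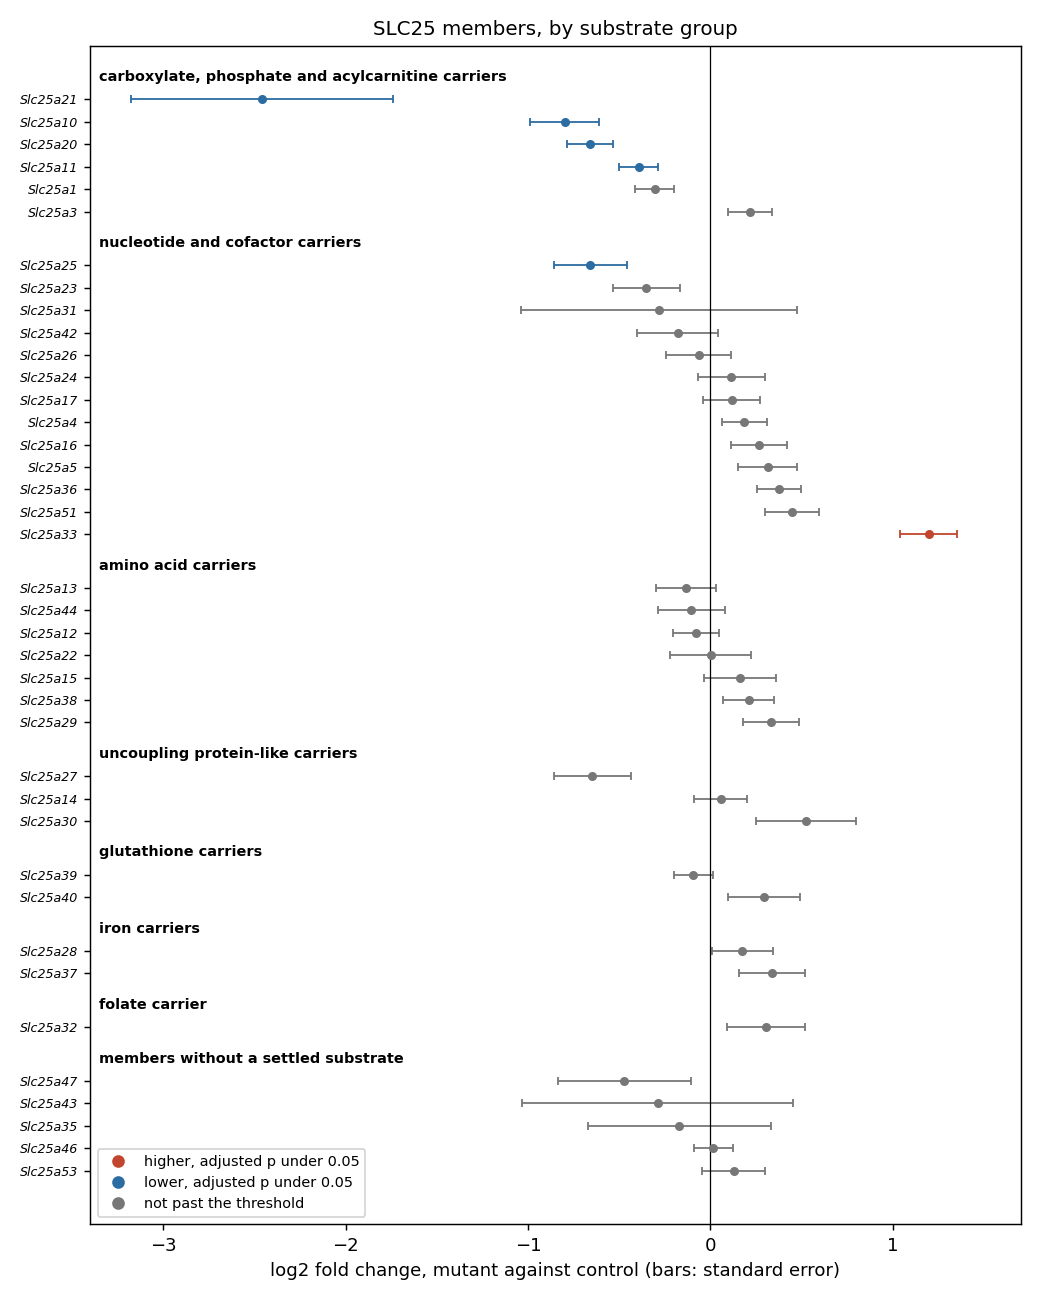
Log2 fold change of 39 SLC25 members tested, mutant against control, by substrate group, with its standard error. Red marks the member past the threshold in the higher direction (Slc25a33, 1.20), blue the 5 drawn that are past it in the lower direction (-2.46 to -0.39) and grey the 33 others.

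The 6 carriers of carboxylates, phosphate and acylcarnitine held 4 of the 6 members that fell, and none of them rose, where 7.02% of all genes were lower and 7.82% higher. Of these 4, only Slc25a20 still passed without control 73, and 2 did without control 71, control 76, mutant 78 or mutant 79. The median log2 fold change of all 6 carriers of the group was -0.53, next to -0.01 over all genes. Of the summed FPKM of the family, a measure that does not depend on how libraries are scaled, this group supplied 23.3 ± 1.01% over the 4 control libraries and 19.9 ± 0.654% over the 5 mutant libraries. The lowest control library, at 22.3%, stood above the highest mutant library, at 20.9%. The summed FPKM itself was 443 to 468 in control and 372 to 415 in mutant libraries, whereas after TMM scaling the ranges of 409 to 465 and 367 to 441 overlapped. In CPM the sums were 1159 ± 81.2 and 1155 ± 102 and did not differ beyond their spread.

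Slc25a20 (chr9:108662098-108684641, plus strand, mm10) encodes the carnitine-acylcarnitine carrier, which brings long-chain fatty acyl groups into the matrix for oxidation. Its control libraries held 49.3, 40.3, 41 and 42 CPM and its mutant libraries 28, 25.1, 30.9, 28 and 24.4 CPM. Every mutant library lay below every control library. The log2 fold change was -0.66 (SE 0.13, adjusted p = 0.00564, edgeR), and the call held with each library left out in turn.

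Slc25a10 (chr11:120491840-120499187, plus strand) encodes the dicarboxylate carrier, which exchanges malate and succinate for phosphate. It was measured at 39.96, 41.9, 47.2 and 30.5 CPM in control and 31.8, 22.5, 15.7, 22.1 and 22.6 CPM in mutant libraries. Mutant 74 lay just above control 76, and the other mutant libraries lay below all controls. The log2 fold change was -0.80 (SE 0.19, adjusted p = 0.0155, edgeR), with an adjusted p of 0.06 when control 73 was left out.

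Slc25a11 (chr11:70644196-70647479, minus strand) encodes the oxoglutarate carrier, a part of the malate-aspartate shuttle that carries reducing equivalents inward. In control libraries it reached 257, 222, 227 and 251 CPM, and in mutant libraries 169, 211, 185, 178 and 168 CPM. The genotypes did not overlap, and the log2 fold change was -0.39 (SE 0.11, adjusted p = 0.0276, edgeR). This call was lost when control 71, 73 or 76 or mutant 77, 78 or 79 was left out, with adjusted p-values from 0.0553 to 0.0694.

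Slc25a21 (chr12:56712634-57197472, minus strand) encodes a carrier of oxoadipate and oxoglutarate used in lysine and tryptophan breakdown, and it was rare in these cells. Control libraries held 35, 51, 17 and 32 reads and mutant libraries 1, 0, 13, 4 and 8 reads. In CPM these were 1.49, 1.99, 0.716 and 1.35 against 0.0426, 0, 0.663, 0.197 and 0.363, so that the lowest control and the highest mutant library nearly met. The log2 fold change was -2.46 (SE 0.72, adjusted p = 0.0367, edgeR). It no longer passed when any control library, mutant 78 or mutant 79 was left out, with adjusted p-values from 0.0515 to 0.103.

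The other carriers of this group did not pass the threshold in edgeR, whereas with limma-voom they did. Slc25a1, the citrate carrier that supplies cytosolic acetyl groups, measured 140.5 ± 11.8 CPM in control and 114 ± 10.5 CPM in mutant libraries (log2 -0.31, SE 0.11, adjusted p = 0.0738, edgeR). Slc25a3, which brings in the phosphate used by ATP synthase, had control values of 739, 612, 657 and 770.1 CPM and mutant values of 682, 892, 849, 879.9 and 738 CPM. Mutant 75, 77 and 78 lay above all controls while mutant 74 and 79 lay within their range, and the log2 fold change was 0.22 (SE 0.12, adjusted p = 0.236, edgeR).

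The 15 nucleotide and cofactor carriers held the member that rose and 2 of those that fell, among 14 tested, next to 7.82% of all genes higher and 7.02% lower. Their median log2 fold change was 0.12. Slc25a33 (chr4:149744036-149774277, minus strand) encodes a carrier that brings pyrimidine nucleotides into mitochondria for the synthesis of mitochondrial DNA and RNA. The control libraries contained 16.7, 12.4, 15.2 and 16.1 CPM and the mutant libraries 28.1, 35.8, 37.8, 40.1 and 30.8 CPM. The lowest mutant library was well above the highest control library. The log2 fold change was 1.20 (SE 0.16, adjusted p = 7.58e-04, edgeR), higher in 5 of 5 mutant libraries, and the call held with each library left out in turn. Its exons overlap those of the opposite-strand gene Gm13068 by 281 bases, and that gene averaged 0.0932 CPM in control and 0.175 CPM in mutant libraries.

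Slc25a36 (chr9:97074961-97111157, minus strand) encodes the other pyrimidine nucleotide carrier. It measured 78.1, 93.9, 87.9 and 80.9 CPM in control libraries and 88.2, 109.5, 122, 116 and 116 CPM in mutant libraries. Mutant 74 lay within the control range and the other mutant libraries above it. With a log2 fold change of 0.38 (SE 0.12) its adjusted p was 0.0511 in edgeR, so that it narrowly missed the threshold, and with mutant 74 left out it was 0.0130.

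**Figure D2:**
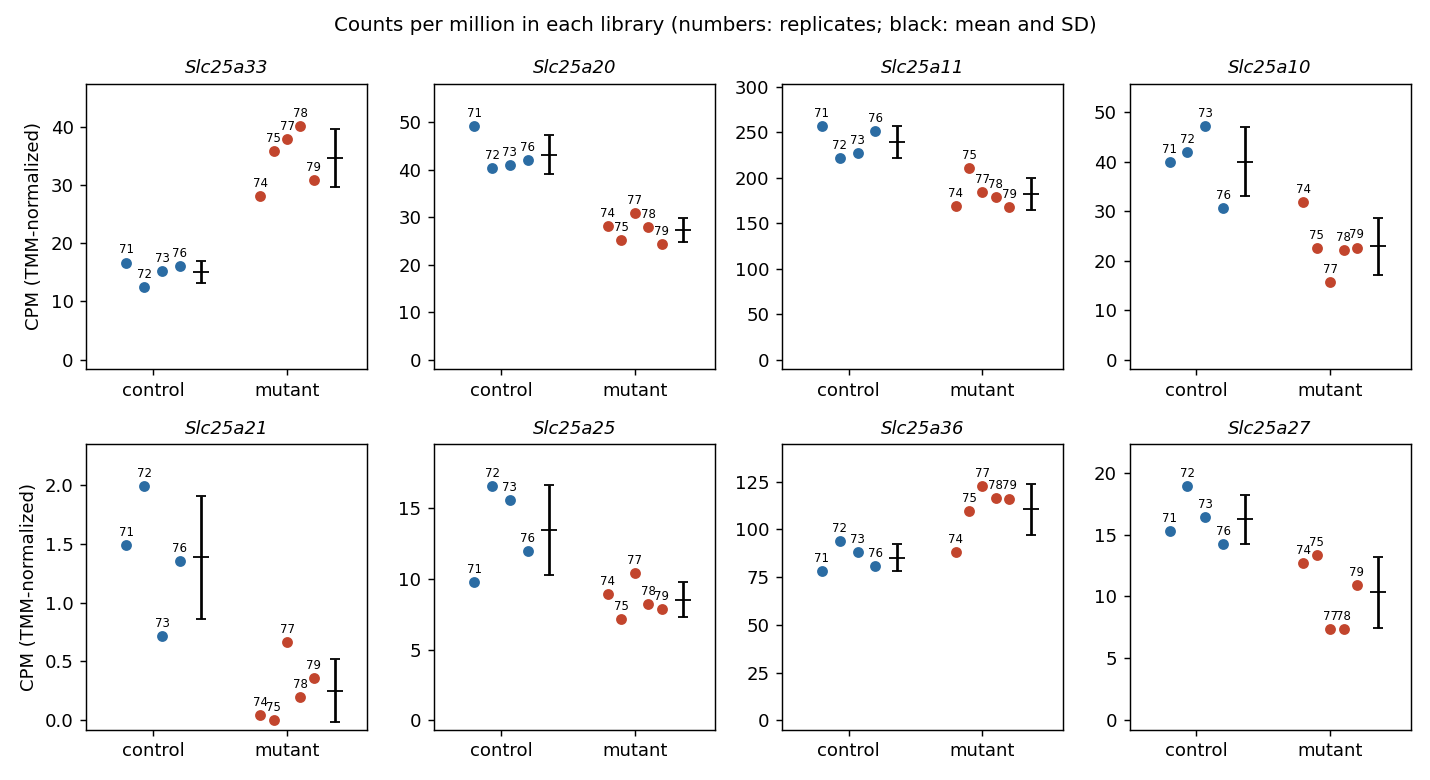
CPM in each library (points, with replicate numbers) for 6 members past the threshold and for Slc25a36 and Slc25a27, which were not, with the mean and SD in black. Mutant libraries of Slc25a33 (28.1 to 40.1 CPM) stand above all controls (12.4 to 16.7 CPM), and those of Slc25a20, Slc25a11, Slc25a21 and Slc25a27 below all controls.

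Promoters are shown for this pair of pyrimidine carriers and for Slc25a20 and Slc25a11. The latter are among the 4 members whose libraries did not overlap in the lower direction, and Slc25a21 and Slc25a27, which also belong there, are not shown. The 250 bases before each RefSeq start site (GRCm38.p6) are given 5′ to 3′ on the strand of the gene. The E-box CACGTG and the CCAAT box (CCAAT, or ATTGG on the other strand) are in capitals. RefSeq starts differ from the gene coordinates of the deposited table, which are those printed above. By the deposited coordinates the window of Slc25a11 lies wholly within the gene, and those of Slc25a36, Slc25a20 and Slc25a33 lie partly within it.
Slc25a33, chr4:149774268-149774517, minus strand: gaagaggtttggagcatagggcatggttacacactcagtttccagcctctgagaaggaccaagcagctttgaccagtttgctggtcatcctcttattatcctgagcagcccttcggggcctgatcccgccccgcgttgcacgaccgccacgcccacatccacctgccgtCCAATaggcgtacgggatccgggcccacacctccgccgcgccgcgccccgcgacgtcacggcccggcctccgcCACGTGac
Slc25a36, chr9:97111042-97111291, minus strand: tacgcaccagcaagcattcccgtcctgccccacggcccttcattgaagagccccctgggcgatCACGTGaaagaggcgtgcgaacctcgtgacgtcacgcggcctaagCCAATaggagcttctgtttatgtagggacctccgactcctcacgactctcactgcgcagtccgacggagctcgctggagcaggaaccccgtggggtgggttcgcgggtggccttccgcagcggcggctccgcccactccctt
Slc25a20, chr9:108661886-108662135, plus strand: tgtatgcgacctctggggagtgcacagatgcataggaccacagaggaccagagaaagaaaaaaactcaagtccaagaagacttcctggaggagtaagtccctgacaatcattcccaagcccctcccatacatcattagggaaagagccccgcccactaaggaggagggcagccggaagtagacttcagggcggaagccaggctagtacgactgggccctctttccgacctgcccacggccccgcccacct
Slc25a11, chr11:70647040-70647289, minus strand: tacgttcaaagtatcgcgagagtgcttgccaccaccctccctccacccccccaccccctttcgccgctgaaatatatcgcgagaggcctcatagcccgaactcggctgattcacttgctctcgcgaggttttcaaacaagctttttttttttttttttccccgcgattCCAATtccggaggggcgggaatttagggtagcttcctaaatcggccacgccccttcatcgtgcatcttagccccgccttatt

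The promoters of both pyrimidine carriers held an E-box and a CCAAT box. In Slc25a33 the E-box lay 8 to 3 bases before the RefSeq start site, which is within the gene by the deposited coordinates. Its CCAAT box lay 81 to 77 bases before that site. In Slc25a36 the E-box and the CCAAT box lay 187 to 182 and 142 to 138 bases before its RefSeq start. Slc25a11 had a CCAAT box 82 to 78 bases before its RefSeq start, within the gene by the deposited coordinates, and Slc25a20 had neither.

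Over windows from 250 bases before to 50 after the start, RefSeq promoters were at hand for 36 of the 47 members, in 46 windows. The E-box, which is its own reverse complement, was in 17.4% of member windows, belonging to 7 genes (Slc25a1, Slc25a13, Slc25a14, Slc25a15, Slc25a31, Slc25a33 and Slc25a36), and in 7.15% of all 32851 windows. CCAAT was in 47.8% of member windows, belonging to 19 genes, and in 37.4% of all windows. Among other motifs searched on both strands, GCATGCGC, the site of NRF1, was in 2 member windows (4.35%) and 2.71% of all, and AAGGTCA, a site of estrogen-related receptors, in 1 member window (2.17%) and 4.72% of all. TGATGNAAN, the site bound by ATF4 with C/EBP proteins, was in 0 member windows and 3.95% of all windows. The motifs are distinct words, so that a match to 1 is not a match to another. They were chosen after expression values had been seen, and a match describes the letters only.

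Slc25a25 (chr2:32414487-32451445, minus strand) belongs to the calcium-regulated carriers that exchange ATP-Mg for phosphate and set the adenine nucleotide content of the matrix. Its values were 9.76, 16.5, 15.6 and 12 CPM in control and 8.95, 7.17, 10.4, 8.26 and 7.89 CPM in mutant libraries. Mutant 77 overlapped control 71, the lowest control, and the log2 fold change was -0.66 (SE 0.20, adjusted p = 0.0423, edgeR). The call was lost without control 72 or 73 or mutant 75, 78 or 79 (adjusted p-values from 0.0772 to 0.136). Its exons share 379 bases with the opposite-strand gene Naif1, which averaged 12.7 CPM in control and 8.43 CPM in mutant libraries (log2 -0.59), and reads of the shared bases cannot be told apart in libraries without strand.

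Its relative Slc25a24 was present at 14.7, 20.8, 16.9 and 21 CPM in control and 21.1, 26.6, 18.51, 15.3 and 17.9 CPM in mutant libraries. These ranges overlapped widely (log2 0.12, SE 0.18, adjusted p = 0.709, edgeR). Another tested carrier of this kind, Slc25a23, averaged 19.3 ± 2.54 CPM and 15.1 ± 3.45 CPM (log2 -0.35, adjusted p = 0.211, edgeR).

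The ADP/ATP carriers exchange cytosolic ADP for matrix ATP. None passed the threshold in edgeR, whereas Slc25a4 and Slc25a5 passed it with limma-voom. Per kilobase, Slc25a4 and Slc25a5 were the most abundant members in control libraries. Slc25a4, the form of heart and muscle, had 1102, 821, 900.2 and 1035 CPM in control and 961, 1238, 1145, 1119 and 1025 CPM in mutant libraries (log2 0.19, SE 0.12, adjusted p = 0.324, edgeR). Slc25a5, the form of proliferating cells, had 515, 356, 473 and 542 CPM and 462, 641, 663, 694 and 470.2 CPM (log2 0.31, SE 0.16, adjusted p = 0.203, edgeR). In both, mutant 75, 77 and 78 lay above all controls and mutant 74 and 79 within their range. Slc25a31, the form of male germ cells, was at or below 2.50 CPM in every library.

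Among cofactor carriers, Slc25a51, the carrier of NAD, reached 83.4 ± 14.8 CPM in control and 114 ± 17.2 CPM in mutant libraries (log2 0.45, SE 0.15, adjusted p = 0.0596, edgeR). Slc25a16 and Slc25a42, both linked to the entry of coenzyme A, did not pass either. Slc25a16 had 14.8, 17.2, 16.9 and 18.4 CPM in control and 16.6, 25.1, 19.7, 19.6 and 20.2 CPM in mutant libraries (log2 0.27, adjusted p = 0.259, edgeR). Slc25a42 had 5.84, 9.35, 7.54 and 7.13 CPM and 5.54, 5.53, 5.92, 6.94 and 9.03 CPM (log2 -0.18, adjusted p = 0.622, edgeR). Their genotypes overlapped. Slc25a17, a peroxisomal carrier of cofactors, and Slc25a26, the carrier of S-adenosylmethionine, had log2 fold changes of 0.12 and -0.06.

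None of the 7 amino acid carriers tested passed the threshold in edgeR, next to 14.8% of all genes, and 1 had an unadjusted p below 0.05. Their median log2 fold change was 0.00, with a range from -0.13 to 0.33. The aspartate-glutamate carriers, which complete the malate-aspartate shuttle, were both well detected. Slc25a12 had 62.6, 71.3, 67 and 85 CPM in control and 59.5, 69.96, 72.2, 60.4 and 76 CPM in mutant libraries (log2 -0.08, SE 0.13, adjusted p = 0.703, edgeR). Slc25a13, also called citrin, had 25.2, 33.6, 33.3 and 29.96 CPM and 32.6, 24.4, 20.5, 32.5 and 29.1 CPM (log2 -0.13, SE 0.16, adjusted p = 0.620, edgeR). In each the libraries of the genotypes were intermingled.

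The glutamate carrier Slc25a22 averaged 38.2 ± 8.93 CPM in control and 38.2 ± 11.2 CPM in mutant libraries, and spread widely within each genotype. The ornithine carrier Slc25a15 (log2 0.16), the glycine carrier Slc25a38 (log2 0.21), the carrier of branched-chain amino acids Slc25a44 (log2 -0.10) and the basic amino acid carrier Slc25a29 (log2 0.33, adjusted p = 0.154, edgeR) also did not pass. The last was the member of this group with the largest fitted change.

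The uncoupling protein-like carriers Slc25a14, Slc25a27 and Slc25a30 resemble the uncoupling proteins in sequence. None passed the threshold in edgeR, whereas Slc25a27 passed it with DESeq2, with limma-voom and with upper-quartile factors, and Slc25a30 with limma-voom. Slc25a14 had 24.9, 18.9, 19.9 and 24 CPM in control and 20.2, 25.7, 21, 22.5 and 24.5 CPM in mutant libraries (log2 0.06, SE 0.14, adjusted p = 0.825, edgeR). Slc25a30 had 4.22, 3.08, 2.40 and 4.30 CPM and 5.58, 3.32, 5.10, 4.38 and 6.76 CPM (log2 0.52, SE 0.28, adjusted p = 0.215, edgeR). Both overlapped between genotypes. Slc25a27 ranged from 14.3 to 18.9 CPM in control and from 7.34 to 13.4 CPM in mutant libraries, without overlap, with a log2 fold change of -0.65 (SE 0.21) and an adjusted p of 0.0561 in edgeR.

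Some proteins of the SLC25 family carry other gene names and so are not members by symbol. Of 5 such genes, Ucp1 and Ucp3 were not tested. Ucp2, which exports small carboxylates from the matrix, had 441, 342, 322 and 362 CPM in control and 179, 214, 159, 183 and 154 CPM in mutant libraries. Every mutant library lay far below every control library, with a log2 fold change of -1.05 (SE 0.13, adjusted p = 5.96e-04, edgeR). Mtch1 and Mtch2, relatives that sit in the outer membrane, had log2 fold changes of -0.31 and 0.34 with adjusted p-values of 0.0908 and 0.141 in edgeR.

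The mitoferrins bring iron into the matrix for heme and iron-sulfur clusters. Slc25a37, the form of erythroid cells, had 13.4, 18.8, 18.2 and 20.8 CPM in control and 23.9, 17.3, 19.1, 23.6 and 28.4 CPM in mutant libraries (log2 0.34, SE 0.18, adjusted p = 0.226, edgeR). Slc25a28, the widely expressed form, had 13.8, 17.7, 16.1 and 16.5 CPM and 19.5, 15.8, 16.2, 15.3 and 23.5 CPM (log2 0.17, SE 0.17, adjusted p = 0.516, edgeR). Neither passed in edgeR, and the genotypes overlapped. The summed level of 7 erythroid markers was 1.39 to 2.66 CPM in control and 1.52 to 2.50 CPM in mutant libraries.

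Slc25a32, the folate carrier, averaged 8.48 ± 1.83 CPM in control and 10.5 ± 1.99 CPM in mutant libraries (log2 0.30, SE 0.21, adjusted p = 0.353, edgeR). The glutathione carriers differed greatly in abundance. Slc25a39 had 459, 372, 375 and 436 CPM in control and 376, 424, 371, 372 and 379 CPM in mutant libraries (log2 -0.09, SE 0.11, adjusted p = 0.584, edgeR). Slc25a40 had 9.88, 11.2, 9.74 and 8.94 CPM and 11.5, 16.7, 11.4, 12.6 and 8.80 CPM (log2 0.29, SE 0.20, adjusted p = 0.336, edgeR). Neither passed in edgeR, and the libraries of the genotypes overlapped.

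Of the 9 members without a settled substrate, 5 were tested and none passed in edgeR, next to 14.8% of all genes, with 0 at an unadjusted p below 0.05. Slc25a46, which sits in the outer membrane and takes part in mitochondrial dynamics, was close in both genotypes at 87.6 ± 9.94 CPM and 88.6 ± 4.35 CPM (log2 0.02, SE 0.11). Slc25a35, Slc25a43, Slc25a47 and Slc25a53 had log2 fold changes from -0.47 to 0.13. The 7 members that were not tested, Slc25a2, Slc25a18, Slc25a34, Slc25a41, Slc25a45, Slc25a48 and Slc25a54, had at most 30 reads in any library. Slc25a34 had 1, 0, 4 and 4 reads in the control libraries and 0 reads in 5 of 5 mutant libraries, too few to compare the genotypes.

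Per kilobase of transcript, the carriers spanned several orders of magnitude in control SIX2 progenitors. The highest was Slc25a4 at 518 ± 50.5 FPKM (SD, n = 4), followed by Slc25a5 at 393 ± 56.2 FPKM, Slc25a39 at 252 ± 18.7 FPKM, Slc25a3 at 178 ± 12.4 FPKM and Slc25a11 at 145 ± 5.74 FPKM. Each of these 5 was separate from the next in the order in all control libraries. Slc25a1 at 86.9 ± 9.20 FPKM and Slc25a17 at 84.8 ± 8.56 FPKM came next and did not separate from each other. The 5 highest members together made up 75.8 ± 2.36% of the summed FPKM of the family in control and 78 ± 1.48% in mutant libraries.

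The summed FPKM of all 47 members was 1957 ± 116 in control and 1956 ± 98.2 in mutant libraries, and after TMM scaling 1892 ± 179 and 2021 ± 188. On both scales the difference was smaller than the spread between libraries. Within that sum the ADP/ATP carriers took 46.5 ± 2.49% in control and 51.5 ± 2.32% in mutant libraries, with ranges of 42.9 to 48.3% and 48.7 to 53.7% that did not meet. The phosphate carrier Slc25a3 took 9.08 ± 0.219% and 9.89 ± 0.296%, also without overlap. In the order by FPKM, Slc25a33 stood at place 21 in control (8.25 ± 0.781 FPKM) and at place 13 in mutant libraries (17.7 ± 1.80 FPKM).

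**Figure D3:**
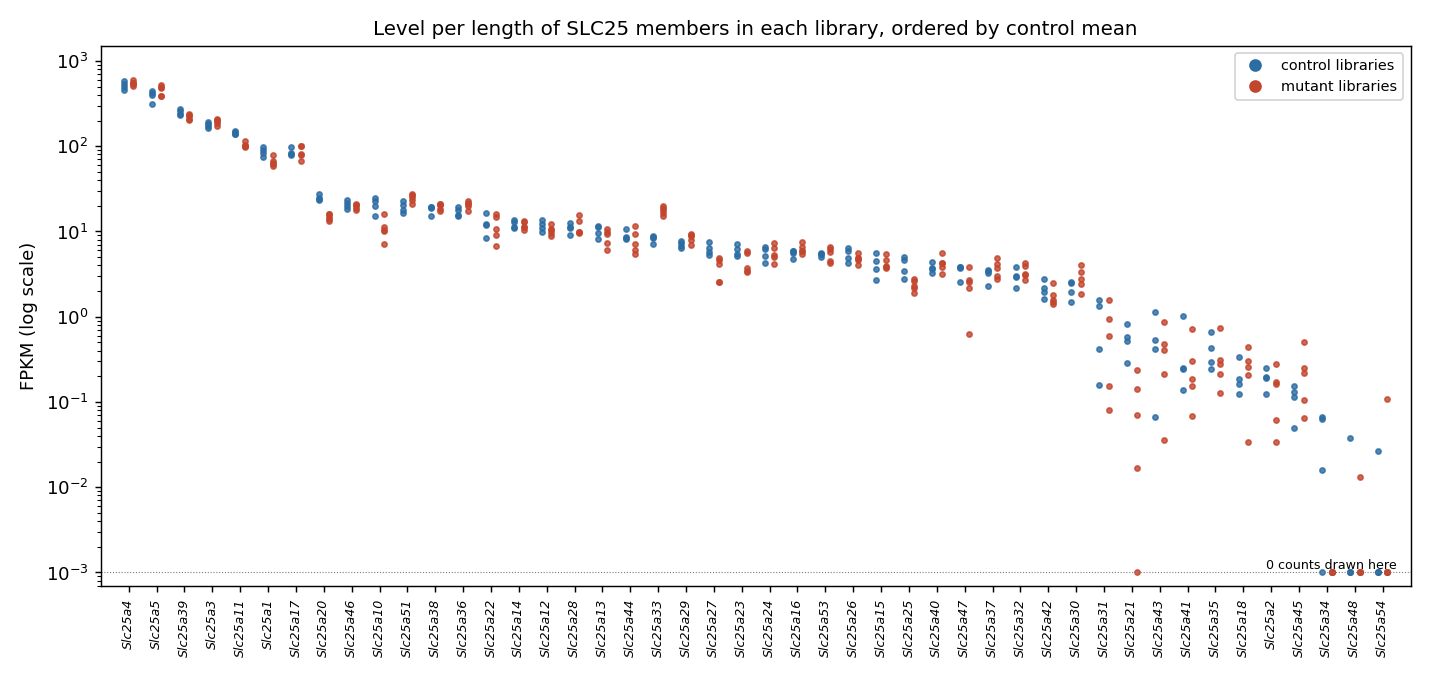
FPKM of 46 members in each library on a log axis, ordered by the control mean, with control libraries in blue and mutant libraries in red. The control means run from 518 FPKM for Slc25a4 to below 0.01 FPKM for Slc25a54, and libraries with 0 counts are drawn on the dotted line.

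Related carriers with the same or a similar substrate were compared as the ratio of their counts within each library, which does not depend on how libraries are scaled. Of 9 pairs, 8 had both members tested, and Slc25a18 with Slc25a22 did not. Slc25a33 supplied 15.1 ± 2.61% of the counts of the pyrimidine pair over the 4 controls and 23.8 ± 1.76% over the 5 mutants, without overlap. The log2 ratio of Slc25a33 to Slc25a36 moved by 0.82 (exact permutation p = 0.00794, 2-sided, the smallest that 4 against 5 libraries allow, adjusted p = 0.0635 over 8 pairs). Slc25a24 supplied 57.9% of the counts of its pair with Slc25a25 in control and 69.5% in mutant libraries, also without overlap, a change of 0.74 in the log2 ratio (exact permutation p = 0.0159, adjusted p = 0.0635). After adjustment 0 of the 8 pairs passed and 2 had an unadjusted p below 0.05 in the exact permutation test. A single pair at the smallest p cannot go below an adjusted p of 0.0635 here, so this count says little about the pairs.

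The other 6 pairs overlapped between genotypes. In log2 ratio, mutant minus control, the ADP/ATP carriers Slc25a4 to Slc25a5 differed by -0.12 (exact permutation p = 0.333) and the aspartate-glutamate carriers Slc25a12 to Slc25a13 by 0.07 (exact permutation p = 0.794). The mitoferrins Slc25a28 to Slc25a37 differed by -0.17 (exact permutation p = 0.19), and Slc25a14 to Slc25a30 by -0.46 (exact permutation p = 0.103). For Slc25a39 to Slc25a40 the difference was -0.36 (exact permutation p = 0.0952), and for Slc25a16 to Slc25a42 it was 0.44 (exact permutation p = 0.0714). Slc25a39 supplied nearly all counts of the glutathione pair in every library.

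**Figure D4:**
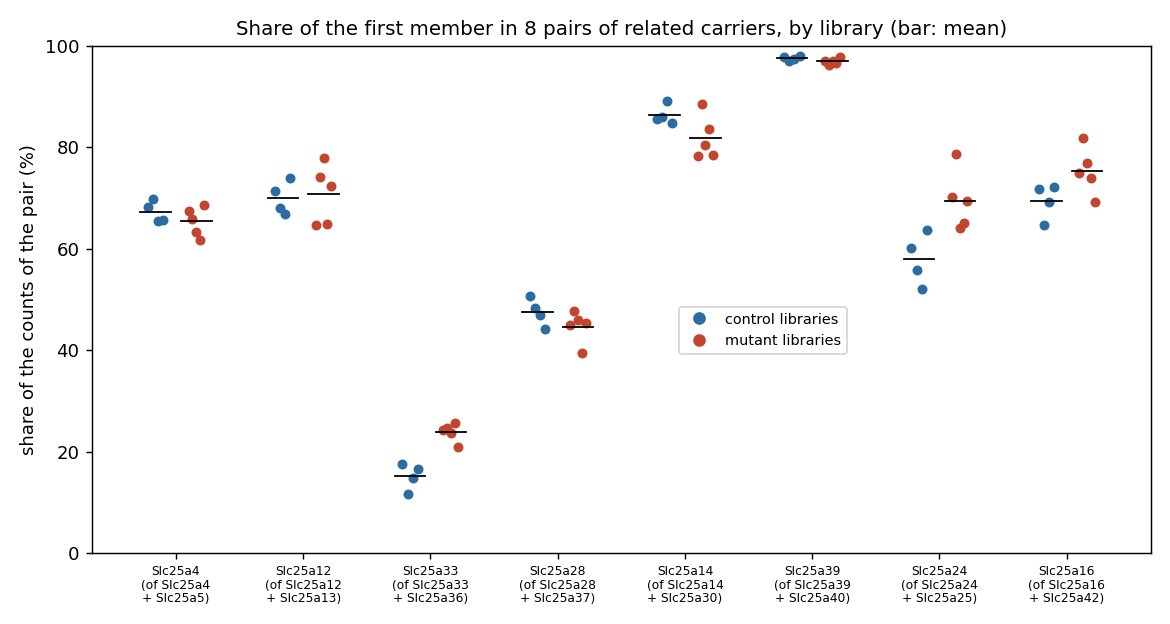
Share (%) of the counts of each of 8 carrier pairs that came from the first member named, in each control (blue) and mutant (red) library, with the mean as a bar. The genotypes do not overlap for Slc25a33 of Slc25a33 and Slc25a36 (means 15.1 and 23.8%) and for Slc25a24 of Slc25a24 and Slc25a25 (means 57.9 and 69.5%).

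Libraries of the mutant group were not alike across the family. Mutant 74, which lay nearest to the controls on the first principal component, was within the control range for Slc25a3, Slc25a4, Slc25a5, Slc25a10, Slc25a36 and Slc25a51, but outside it for Slc25a33, Slc25a20 and Slc25a11. Mutant 75, 77 and 78 lay above all controls for Slc25a3, Slc25a4, Slc25a5, Slc25a36 and Slc25a51. Mutant 79 had the highest level of both mitoferrins, and of Slc25a30, among the 9 libraries.

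**Figure D5:**
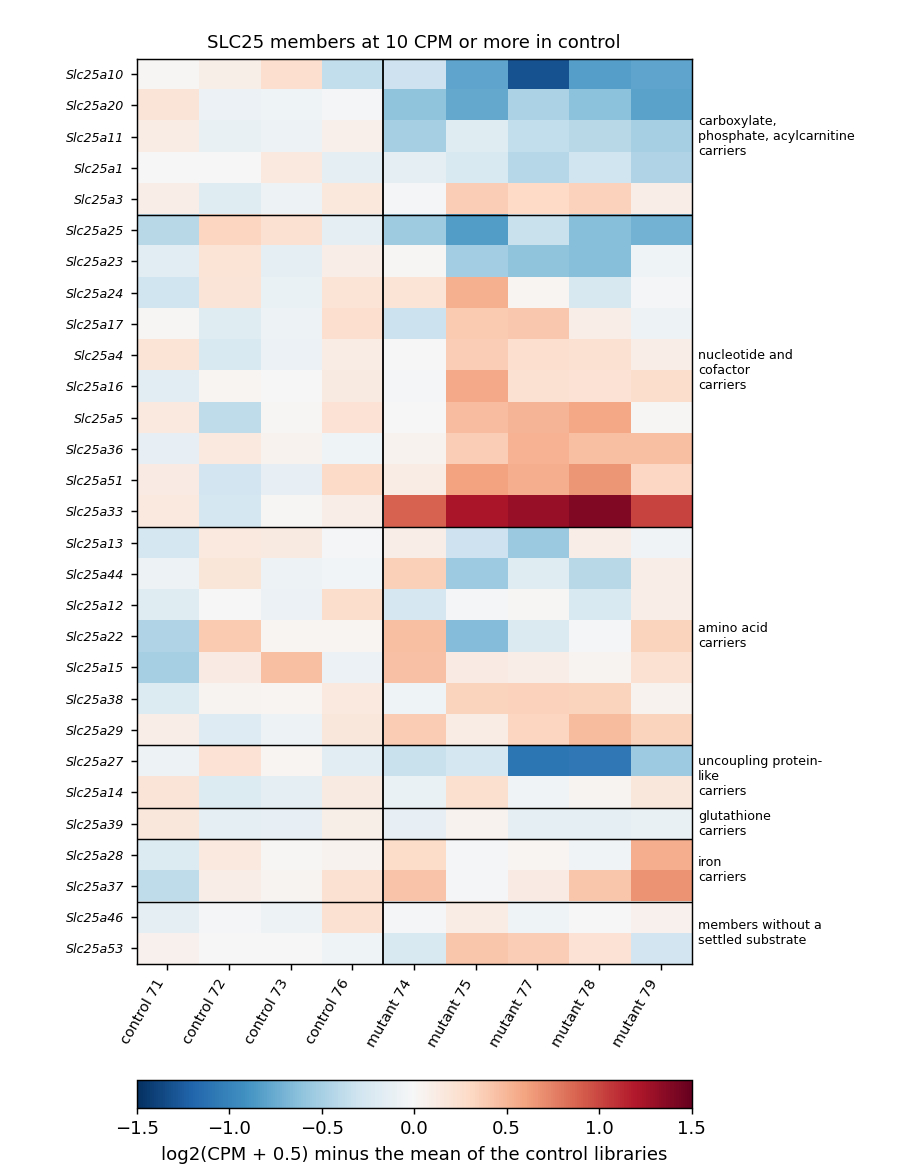
Log2(CPM + 0.5) of 29 members at 10 CPM or more in control, in each library, minus the mean of the 4 control libraries, by substrate group (blue lower, red higher). The row of Slc25a33 is red in all 5 mutant libraries and those of Slc25a10, Slc25a20 and Slc25a11 are blue, while mutant 74 is paler than the other mutant libraries in many rows.

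Genes that work beside the carriers were counted in the same way. Of 53 partner genes, 51 were tested, 7 were higher and 5 lower, which is 23.5% next to 14.8% of all genes. Leaving out control 72 or mutant 78 gave 7 partner genes past the threshold, leaving out control 73 gave 6 and leaving out mutant 74 gave 19. The count of lower partner genes was 1 without control 72 or control 73, 2 without mutant 77, 78 or 79 and 11 without mutant 74. That of higher ones ran from 5 to 8 with 1 library left out. Among 15 other transporters of the inner membrane, 0 were higher and 2 lower, namely Abcb8, a part of the mitochondrial ATP-sensitive potassium channel (log2 -0.77, SE 0.19, adjusted p = 0.0177, edgeR), and Letm1, a cation exchanger (log2 -0.71, SE 0.20, adjusted p = 0.0307, edgeR). The pyruvate carrier subunits Mpc1 and Mpc2 did not pass, with log2 fold changes of 0.23 and 0.18 (adjusted p = 0.507 and 0.467, edgeR). The calcium uniporter Mcu narrowly missed the threshold (log2 0.54, SE 0.18, adjusted p = 0.0566, edgeR). Of the 3 outer membrane channels Vdac1, Vdac2 and Vdac3, 0 passed in edgeR, and 1 had an unadjusted p below 0.05.

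Enzymes that use the substrates of the amino acid and carboxylate carriers changed in both directions, with 4 of 17 higher and 2 lower, next to 7.82% and 7.02% of all genes. The largest rises were in proline synthesis. Aldh18a1, its first enzyme, had 49, 81.4, 86.5 and 71.6 CPM in control and 140.3, 117, 168, 129 and 206 CPM in mutant libraries (log2 1.08, SE 0.19, adjusted p = 0.00420, edgeR). Pycr1, its last enzyme, rose from 42.7 ± 5.74 to 77.4 ± 15.9 CPM (log2 0.86, SE 0.16, adjusted p = 0.00544, edgeR). Cpt1c, a brain-type relative of the carnitine palmitoyltransferases upstream of Slc25a20, fell (log2 -0.60, SE 0.18, adjusted p = 0.0426, edgeR). The carnitine palmitoyltransferases that work directly with Slc25a20, Cpt1a and Cpt2, had log2 fold changes of 0.05 and -0.41 and did not pass (adjusted p = 0.882 and 0.0897, edgeR).

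Around the folate, iron and glutathione carriers, 3 of 13 enzymes were higher, next to 7.82% of all genes, and 0 lower. These 3 belong to the mitochondrial folate pathway, of which Mthfd1l and Mthfd2l did not pass (both log2 0.09, adjusted p = 0.827 and 0.689, edgeR). Mthfd2 had 36.6, 33.8, 37.3 and 42.8 CPM in control and 150.3, 186, 285, 214 and 282 CPM in mutant libraries (log2 2.57, SE 0.19, adjusted p = 2.09e-05, edgeR). Aldh1l2 rose from 2.85 ± 0.814 to 17.4 ± 7.50 CPM (log2 2.60, SE 0.31, adjusted p = 5.23e-04, edgeR), and Shmt2 by a log2 fold change of 0.49 (SE 0.15, adjusted p = 0.0426, edgeR). The carrier that supplies this pathway, Slc25a32, did not pass the threshold, as given above.

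The members lie on 19 chromosomes, and 4 (Slc25a5, Slc25a14, Slc25a43 and Slc25a53) are X-linked. The sex of the embryos is not given in the labels. Within 20 kb of each other lie 4 pairs, whose neighbours differed in level in control libraries. On chromosome X, Slc25a5 (393 ± 56.2 FPKM) follows Slc25a43 (0.541 ± 0.452 FPKM) after a gap of 18.4 kb. On chromosome 3, Slc25a24 (5.56 ± 1.01 FPKM) follows Slc25a54, which had 1 read in the 4 control libraries, after 6.46 kb. On chromosome 17, Slc25a23 (5.95 ± 0.919 FPKM) follows Slc25a41 (0.412 ± 0.405 FPKM) after 2.06 kb, and on chromosome 12, Slc25a47 (3.50 ± 0.613 FPKM) follows Slc25a29 (7.09 ± 0.589 FPKM) on the opposite strand after 15.2 kb. None of the neighbours tested was past the threshold between genotypes in edgeR, and Slc25a41 and Slc25a54 were not tested.

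Exons of 12 members overlap an annotated exon of a gene on the opposite strand. Among the members that passed the threshold, Slc25a11 shares 189 bases with Rnf167, which averaged 184 CPM in control and 193 CPM in mutant libraries. Slc25a10 and Slc25a21 overlap Gm11788 and Pax9, each of which averaged below 0.5 CPM in both genotypes. Slc25a20 has no such overlap.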

How the data were processed

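RNA was sequenced from 9 libraries of sorted SIX2 progenitors (4 control, 5 mutant, embryonic day 18.5). The deposited table gives raw read counts per gene, made by the authors from poly(A) RNA amplified from low input and sequenced without strand. The deposited FPKM were made by the authors per kilobase of gene length and per 1000000 counts. A deposited signal per genotype is the authors' mean of counts divided by size factors. The deposited log2 fold changes and p-values are from the authors' own comparison of the genotypes, and neither these nor the signal were used. STAR, DESeq2 and mm10 are named in the submitters' processing notes, without versions. The read counter is not given in the sources used here. Coordinates are those of the deposited table (mm10). The gene identifiers of 45 of the 47 members matched the annotation. Those of Slc25a16 and Slc25a31 differed from the identifiers of these symbols there, and these members were taken, like the rest, by symbol.

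Counts were tested with edgeR 4.0.16 in R 4.3.3 (filterByExpr, TMM, robust quasi-likelihood test, Benjamini-Hochberg adjustment over all 14990 genes tested, threshold 0.05); DESeq2, which the processing notes name without a role, was run as an alternative. The script was tested on simulated data. CPM are counts per 1000000 after TMM scaling. FPKM were recomputed from counts and gene length, and all of the deposited FPKM values lay within 1% of them. Pairs of members were compared by a 2-sided exact permutation test of the log2 ratio of counts plus 0.5, and the smallest p that 4 against 5 libraries allow is 0.00794. Values are mean ± SD. The alternatives were DESeq2 (1.42.0), RLE and upper-quartile factors, no filter beyond 1 count, a minimum of 10 counts in every library, limma 3.58.1 voom with sample weights, 1 surrogate variable (sva 3.50.0), the summed level of Y-linked genes as a covariate, and each library left out in turn.

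Members were named as follows: every library value for members past the threshold, for both members of each pair tested and for the 5 highest by FPKM, other members by range, mean or, for some, fold change alone, and at most 3 partner genes past the threshold per list. Mpc1, Mpc2, Mcu, Cpt1a, Cpt2, Mthfd1l, Mthfd2l, Mtch1, Mtch2 and the voltage-dependent channels were named beyond that rule after their values were seen. The members, substrate groups, pairs and partner and marker lists were chosen with earlier results of these data known. The values of 1 member are not reported here, though it is included in all counts and sums. Promoters came from RefSeq (GRCm38.p6).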

Additional observations from a re-analysis of the deposited data

Results flagged for a closer look

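Slc25a39, a glutathione carrier and the third most abundant member per length, had 1 mutant library apart from the others. Mutant 75 held 424 CPM, while the other 4 mutant libraries lay between 371 and 379 CPM. The value of mutant 75 was within the range of the control libraries. Among 60 groups of libraries examined in this way, 3 such cases are expected by chance and 1 was found, since chance sets apart a library in about 1 in 20 groups.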

How the results depend on the processing

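Slc25a33 and Slc25a20 passed the threshold under all 17 alternatives, with log2 fold changes of 1.07 to 1.27 and -0.71 to -0.59. The count of SLC25 members past it, 7 in edgeR, was 10 with DESeq2 and 5 to 9 under other filters, factors and covariates, but 16 with limma-voom, and 2 to 11 with 1 library left out. Members in the higher direction, 1 in edgeR, numbered 3 with DESeq2, 2 with RLE factors, 8 with limma-voom, 3 with a surrogate variable and 2 with the Y-linked covariate, and 1 to 3 with 1 library left out. Those in the lower direction, 6 in edgeR, numbered 1 to 8 with 1 library left out. Over all genes the 2225 calls became 4868 with limma-voom (2413 higher, 2455 lower) and 1046 to 3136 with 1 library left out (555 to 1603 higher, 491 to 1533 lower). The 12 partner genes became 25 with limma-voom and 19 with a surrogate variable, and 6 to 19 with 1 library left out. The 5 lower partner genes became 15, 10 and, with the Y-linked covariate, 3, and 1 to 11 with 1 library left out. The cause of these shifts was not tested. Slc25a11 missed the threshold without the filter, Slc25a21 with the Y-linked covariate, and Slc25a25 under both and with a surrogate variable. Slc25a36 passed it with DESeq2, RLE factors, limma-voom and both covariates. Slc25a51 passed it with DESeq2, limma-voom and a surrogate variable, Slc25a27 with DESeq2, upper-quartile factors and limma-voom, Slc25a1 with limma-voom and a surrogate variable, and Slc25a3, Slc25a4, Slc25a5, Slc25a29 and Slc25a30 with limma-voom. Fold changes under the alternatives were followed for 22 members and for the 8 pair ratios, not for the other members or the partner genes. Among those followed, changes of sign were limited to values near 0. Slc25a14 came to -0.00113 with a surrogate variable. With 1 library left out, log2 fold changes ran from -0.14 to 0.0253 for Slc25a12, -0.00851 to 0.12 for Slc25a14 and -0.0112 to 0.20 for Slc25a24, and the log2 ratio of Slc25a12 to Slc25a13 from -0.0622 to 0.17. For the 8 pair ratios, where a single pair cannot pass after adjustment with this number of libraries, the alternatives say nothing about stability. The 5 highest members were the same by CPM. No paired analysis was possible because the replicate numbers of the genotypes do not overlap. The 7 members left untested had at most 30 reads in any library, and Slc25a21, tested, had 0 to 51.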
